A study of Macaca mulatta with 10 samples.

Results

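The genes described here encode the proteins of blood coagulation and fibrinolysis, the systems that form and dissolve fibrin clots. They were taken from a list of 35 symbols, and every probe set whose platform annotation gave exactly 1 symbol on that list was a member, whatever its signal. The rule found 61 probe sets of 30 genes, out of 52865 probe sets and 14133 singly annotated gene symbols in the table. No probe set was paired with F8, F11, PLAT, SERPINF2 or VKORC1, which are not analysed here. Of the 61 probe sets, 55 lay above the median of their array on at least 5 of 10 arrays and were tested, and these stood for 29 genes. PROC (protein C) was the gene left without a tested probe set.

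Liver RNA of rhesus macaques (Macaca mulatta) was hybridised to 1-colour oligonucleotide arrays, with 1 array per animal. In 5 animals brain death was brought about by a balloon catheter inflated outside the dura, and fluid together with vasopressin, dopamine or both kept up the blood pressure. The sample labels put the brain death period at 6 h and the design text at 5 h. The 5 controls were living donors under anaesthesia that were ventilated for 1 h before recovery, so drugs and time under ventilation cannot be told apart from brain death. In both groups the abdominal organs were flushed in situ with preservation solution before recovery. The brain-dead animals, numbered 1 to 5, were 2 females aged 7 and 18 years and 3 males, of which 2 were aged 7 years and the age of animal 3 is not given. The controls were 3 females aged 16, 10 and 4 years and 2 males aged 20 and 10 years. Nothing in the labels describes the clotting state of the animals, and all values are transcript signals of whole liver.

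Clotting begins when tissue factor on cells outside the blood binds factor VII, and it proceeds through factors X and V to thrombin, which cuts fibrinogen to fibrin. Hepatocytes make most circulating factors, their inhibitors and plasminogen, and several of these need a vitamin K-dependent carboxylation by GGCX. Endothelial cells and macrophages of the liver supply other parts, among them von Willebrand factor, thrombomodulin, and the receptors that bind protein C and urokinase.

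THBD (thrombomodulin), which turns thrombin into an activator of protein C, rose in the brain-dead animals, and KLKB1 (plasma prekallikrein) and F2R (thrombin receptor PAR1) fell. The F2R call ended under 14 of 24 alternatives, 8 of them the omission of a single animal, and its second probe set had a change of 0.06. The other 26 of 29 genes tested did not pass the test (limma, Benjamini-Hochberg adjusted p under 0.05 over all probe sets tested). The share called was 10.3%, beside 6.77% of all 9835 genes tested. In the upward direction it was 3.45% beside 2.9%, and in the downward direction 6.9% beside 3.87%, which are counts of 1 and 2 genes. All 19 tested genes made mainly by hepatocytes had a change below 0, with a median of -0.40 on the log2 scale, whereas 50.5% of all genes lay below 0 around a median of -0.01. In that group 1 gene fell and 18 did not pass. After quantile normalization 17 of the 19 were below 0 with a median of -0.24, and after median centring 17 with a median of -0.33. F5 and FGG were the genes above 0 under both of those scalings, by 0.01 each. Leaving out 1 animal at a time left 18 or 19 below 0, and taking the mean of each gene's probe sets left 17. The 10 genes of other cells or of broad expression ran both ways, 4 below and 6 above 0, with a median of 0.25. With the mean of each gene's probe sets they ran 5 below and 5 above, with a median of 0.13. GGCX, which acts on hepatocyte factors and had a change of 0.33, was counted among these 10. The split by source was set with earlier results of these data known. The shared sign of the 19 genes is therefore a description and not a test. Fewer cells of a type and less RNA per cell cannot be told apart in such whole-tissue values.

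**Figure D1:**
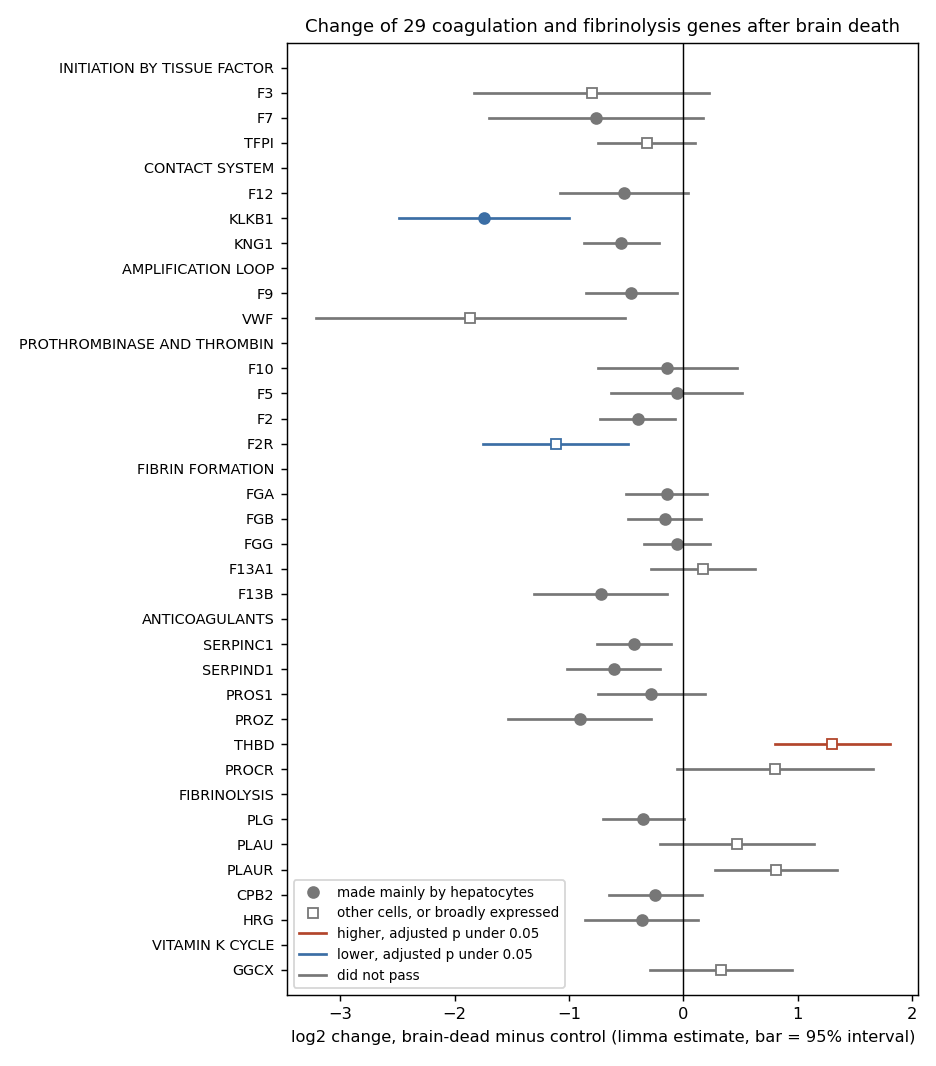
Limma estimates of the log2 change, brain-dead minus control, for 29 genes ordered by role, with 95% intervals as bars. Filled circles are genes made mainly by hepatocytes, all left of 0, and open squares are the others, with THBD the called rise at 1.30 and KLKB1 and F2R the called falls at -1.74 and -1.11.

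The array-wide facts that bear on these values are few. Signals were scaled to a trimmed mean of 1000 per array, and array medians lay between 174.6 and 227.1. Liver identity was plain from the hepatocyte markers, whose summed signal over 11 genes was 788700 to 880200 in brain-dead and 903600 to 1097000 in control animals. None of these 11 markers passed the test and 10 had a change below 0. On the second principal component the animals numbered 1 stood away from the rest (72.1 in the brain-dead and 69.6 in the control animal, all others between -36.1 and 26.5). Without that pair THBD and KLKB1 were called as before, F2R was not, and KNG1 (kininogen) became a called fall. The labels name separate animals, and precision is limited throughout by having 5 arrays in each group.

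Thrombomodulin is the membrane receptor that redirects thrombin from clotting to the protein C pathway. THBD signal (probe set MmuSTS.834.1.S1_at) was 3367, 3357, 2132, 2369 and 3196 in brain-dead animals 1 to 5, against 822, 1048, 1093, 1529 and 1384 in control animals 1 to 5. Every brain-dead animal lay above every control. The rise was 2.47-fold, a log2 change of 1.30 ± 0.23 (SE, n = 5 animals per group, limma adjusted p = 0.00905). It was called under all 23 alternative settings of the same probe set, with a change between 1.12 and 1.42, and with the mean of all THBD probe sets at 0.85. A second THBD probe set gave 2227, 1287, 1138, 1285 and 1015 in brain-dead animals, against 355, 698, 581, 678 and 700 in controls. There too the groups did not overlap, and the change of 1.19 ± 0.26 passed (limma adjusted p = 0.0224). Another THBD probe set had a change of 0.77 that missed the threshold (limma adjusted p = 0.106), and the dimmest, above the median on 5 arrays, one of 0.11. Of 14 endothelial markers tested none passed and 13 had a change below 0. The summed signal of the 16 endothelial markers with a probe set was 55540 to 76880 in brain-dead and 63770 to 97010 in control animals.

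PROCR, the endothelial receptor that presents protein C to thrombomodulin, was dim. Its signal was 178, 367, 165, 318 and 548 in brain-dead animals, against 98.3, 119, 263, 218 and 174 in controls. The groups overlapped, and the change of 0.80 ± 0.40 was not called (limma adjusted p = 0.242, 95% interval -0.06 to 1.66). PROC, the zymogen of this pathway and a hepatocyte product, lay below the median on all 10 arrays, at 23.0 to 89.7 in brain-dead and 46.6 to 102 in control animals. With no filter on low values its change was -0.59, not past the threshold (limma adjusted p = 0.632). PROC had only 1 probe set, and whether it reads the transcript well was not tested. Its low signal is therefore not a measure of how strongly PROC was expressed.

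**Figure D2:**
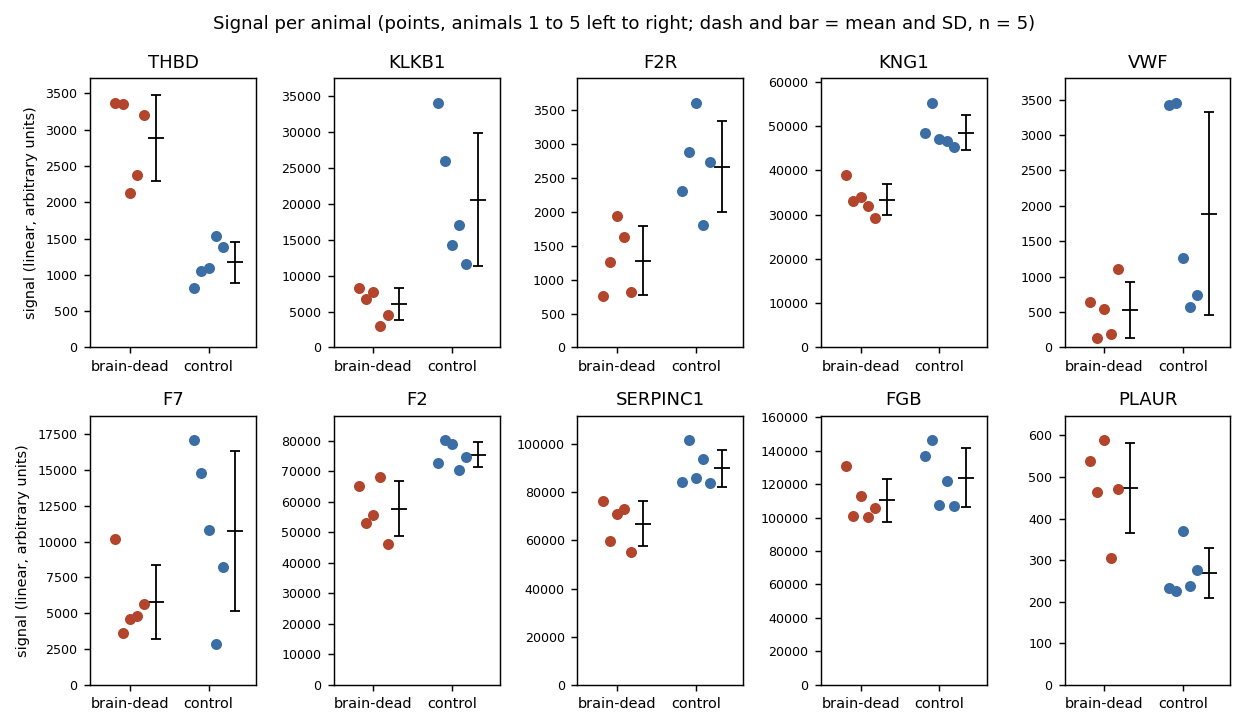
Deposited signal per animal on linear axes for 10 genes, brain-dead left and control right, with mean and SD (n = 5) beside the points. THBD, KLKB1, KNG1, F2 and SERPINC1 separated the groups in all animals, while F2R, VWF, F7, FGB and PLAUR overlapped.

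The contact system is started by factor XII, which activates prekallikrein, and kallikrein in turn cuts kininogen to release bradykinin. All 3 measured genes of it had a change below 0, and 1 fell. KLKB1 signal was 8313, 6751, 7788, 2994 and 4588 in brain-dead animals, against 34068, 26006, 14277, 17079 and 11602 in controls. The highest brain-dead animal lay below the lowest control. Brain-dead animals averaged 6087 ± 2242 and control animals 20606 ± 9273 (SD, n = 5 each), a fall of 3.34-fold in the fit (log2 change -1.74 ± 0.34, limma adjusted p = 0.0142). At the threshold of 0.05 KLKB1 stayed called under all 24 alternatives, between -1.92 and -1.51. In the RefSeq gene table of assembly T2T-MMU8v2.0 its next protein-coding neighbour is F11, the other substrate of factor XIIa.

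KNG1 (kininogen) is the cofactor that carries prekallikrein in plasma. Its signal was 38876, 32989, 33972, 31909 and 29297 in brain-dead animals, against 48406, 55275, 47198, 46580 and 45220 in controls. Although the groups did not overlap, the change of -0.54 ± 0.15 missed the threshold (limma adjusted p = 0.0520), and it passed under 5 of 24 alternatives (limma adjusted p from 0.0296 to 0.200). The other KNG1 probe sets had larger changes, -1.04 and -1.34, which did not pass either (limma adjusted p = 0.0880 and 0.0909). F12 gave 24453, 11987, 14546, 26189 and 15031 in brain-dead animals, against 27862, 31270, 26576, 16134 and 27056 in controls. Control animal 4 lay within the brain-dead range, and the change was -0.52 (95% interval -1.08 to 0.04, not passed).

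Initiation of clotting showed no called gene. F3 (tissue factor), at 91.7, 820, 318, 173 and 196 in brain-dead animals and 338, 637, 543, 350 and 317 in controls, had a brain-dead range that enclosed the control range, and brain-dead animal 2 was the highest of all 10. Its change of -0.80 ± 0.48 was not past the threshold, and it was -0.45 without brain-dead animal 1 and -1.24 without brain-dead animal 2. F7, the plasma partner of tissue factor, gave 10188, 3637, 4575, 4777 and 5672 in brain-dead animals, against 17085, 14785, 10846, 2862 and 8221 in controls. Control animal 4 was the lowest of all 10 animals. The F7 change of -0.76 ± 0.43 did not pass (limma adjusted p = 0.310), but without control animal 4 it was -1.18 and passed (limma adjusted p = 0.0391, and 0.0391 to 0.516 across its alternatives). TFPI, the inhibitor of tissue factor and factor VIIa, had a change of -0.32 (95% interval -0.75 to 0.10), with signals of 5802 to 8401 in brain-dead and 7119 to 10914 in control animals.

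In the amplification loop only F9 and VWF had probe sets. Factor IX, the protease lacking in haemophilia B, gave 38333, 41002, 32655, 28950 and 27750 for F9 in brain-dead animals, against 57449, 41523, 36738, 50474 and 45065 in controls. The ranges overlapped slightly, and both F9 probe sets had similar changes, -0.45 and -0.51, neither passing (limma adjusted p = 0.154 and 0.226). VWF, the endothelial carrier of factor VIII that tethers platelets, had the largest change among the 29 genes at -1.86 ± 0.63 and missed the threshold (limma adjusted p = 0.0953). Its signal was 647, 134, 539, 192 and 1110 in brain-dead animals, against 3423, 3454, 1258, 570 and 740 in controls. The 3 female controls were the 3 highest animals, and the 2 male controls lay inside the brain-dead range. A second VWF probe set lay below the median on every array and was not tested. It gave 40.4, 36.6, 32.8, 72.9 and 8.80 in brain-dead animals, against 68.3, 200, 91.2, 55.3 and 137 in controls. There male control 5 lay above female controls 1 and 3. The interaction of group with sex was not called for any probe set in limma (0 of 26653 after Benjamini-Hochberg adjustment, 1015 at an unadjusted p under 0.05), nor for any of these genes, of which 3 of 29 had such an unadjusted p. The part of the endothelial markers given above in the VWF values was not tested.

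**Figure D3:**
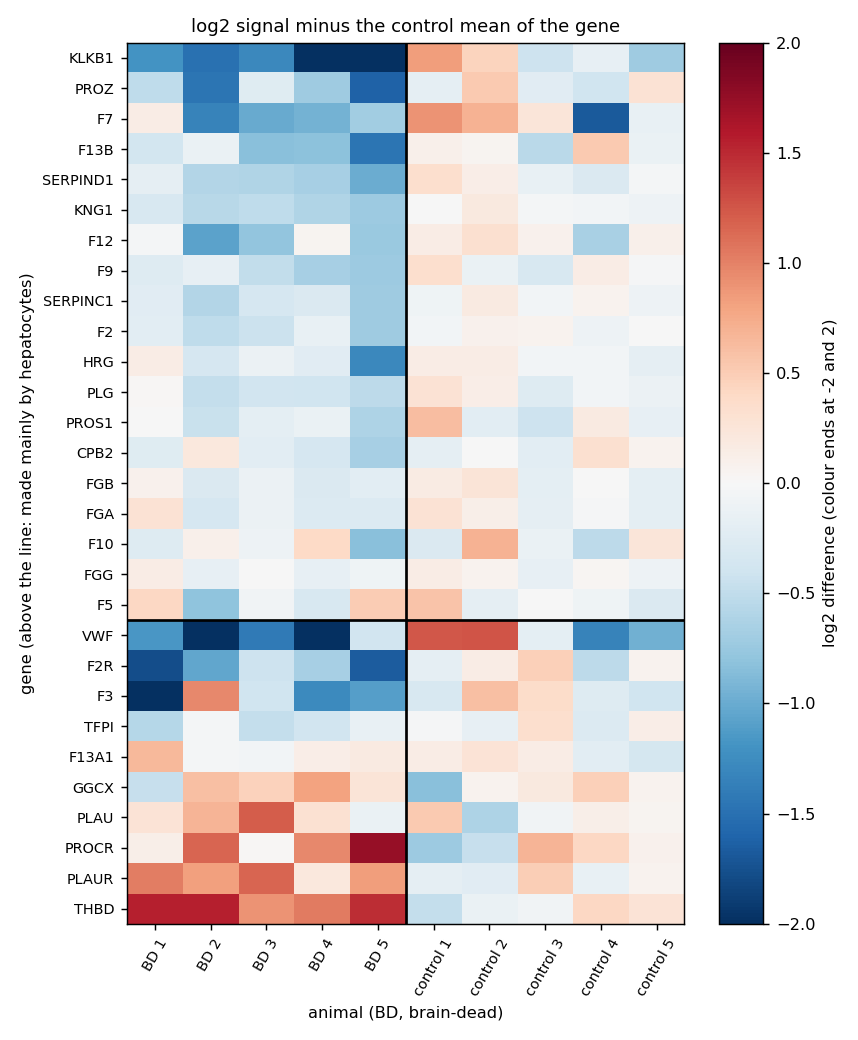
Signal of each animal on the log2 scale minus the mean of the controls for that gene, brain-dead animals in the left columns and controls in the right. Rows above the line are the 19 hepatocyte genes sorted by change. Brain-dead animal 5 holds the lowest value of its group in 12 of them, and rows below the line show THBD high in all brain-dead animals.

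Prothrombinase, the complex of factors Xa and Va, turns prothrombin into thrombin. Prothrombin transcript (F2) stood at 65191, 53121, 55612, 68169 and 46095 in brain-dead animals, against 72651, 80166, 78971, 70352 and 74808 in controls. The groups did not overlap, but the change was small, -0.40 ± 0.15, and was not called (limma adjusted p = 0.136). A dim F2 probe set, at 113 to 551 in brain-dead and 130 to 249 in control animals, had a change of 0.62, not past the threshold. The cofactor F5 gave 28581, 12194, 20261, 17098 and 30530 in brain-dead animals, against 31642, 18873, 21251, 20149 and 17465 in controls. These ranges overlapped widely, with a change of -0.06 (95% interval -0.63 to 0.52) and 0.12 in a second probe set. The protease F10 had a change of -0.14 (95% interval -0.75 to 0.47). F7, F10 and PROZ are direct neighbours in the RefSeq gene table, with changes of -0.76, -0.14 and -0.91.

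F2R encodes PAR1, through which thrombin signals to platelets in primates and to endothelial and stellate cells. Signal of the called probe set (MmugDNA.36576.1.S1_at) was 756, 1259, 1939, 1633 and 820 in brain-dead animals, against 2303, 2874, 3605, 1808 and 2727 in controls. Brain-dead animal 3 lay above control animal 4, so the groups overlapped by that pair. F2R fell by 1.11 ± 0.29 on the log2 scale (SE, limma adjusted p = 0.0422). Among the alternatives that ended the call were leaving out brain-dead animal 1, 2, 4 or 5 or control animal 1, 2, 3 or 5 (limma adjusted p = 0.0796, 0.0559, 0.0537, 0.106, 0.0674, 0.0976, 0.103 and 0.0730, and 0.0265 to 0.303 across its alternatives). Nor did the second F2R probe set show it, with 764, 1921, 1098, 530 and 517 in brain-dead animals, against 698, 697, 1229, 495 and 1212 in controls, a change of 0.06 ± 0.37.

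Fibrinogen is made of chains encoded by FGA, FGB and FGG, neighbouring genes that are classical acute phase genes of hepatocytes. None of the 3 passed the test. FGA signal was 157656, 102905, 119316, 106956 and 106958 in brain-dead animals, against 157907, 140914, 114405, 127733 and 112630 in controls. FGB signal was 130801, 100987, 113119, 100125 and 106000 in brain-dead animals, against 137020, 146212, 107207, 121748 and 107008 in controls. FGG was 161910, 130253, 145805, 129771 and 136841 in brain-dead animals, against 162125, 153858, 129582, 149994 and 136614 in controls. Both groups overlapped in each chain, and for FGG they covered nearly the same range. The 95% intervals of the difference were -0.50 to 0.21 for FGA, -0.49 to 0.16 for FGB and -0.34 to 0.23 for FGG. Other probe sets of FGA (0.02 and 0.09) and FGB (0.04) also lay near 0. FGG signal was 93.5% to 100% of the highest signal on its array, and the FGA probe set 78.2% to 97.4%. Whether the upper end of the scale limited these values was not tested. In the FGA probe set with lower signal, at 23.5% to 39.2% of the array maximum, the values were 43547 to 51496 in brain-dead and 32578 to 57973 in control animals (change 0.09, 95% interval -0.30 to 0.48).

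Factor XIII, the transglutaminase that cross-links fibrin, joins a catalytic subunit from macrophages and megakaryocytes (F13A1) and a carrier subunit from hepatocytes (F13B). F13B gave 15179, 17888, 10923, 11081 and 7067 in brain-dead animals, against 20867, 20342, 13484, 28048 and 17759 in controls. Its change of -0.72 ± 0.27 did not pass (limma adjusted p = 0.124), and its other probe set was at -0.02. The F13A1 probe sets disagreed. The brighter had a change of 0.17 ± 0.21, with 1040 to 1699 in brain-dead and 852 to 1305 in control animals. The dimmer, MmuSTS.4740.1.S1_at, gave 216, 756, 385, 346 and 570 in brain-dead animals, against 110, 42.6, 143, 108 and 29.7 in controls, with no overlap. It passed the test at 2.50 ± 0.49 (limma adjusted p = 0.0138), or 1.75 with a pseudocount of 64. This probe set lay above the array median on the 5 brain-dead arrays and on 0 control arrays, so it entered the test through the group where it was high. Of 15 macrophage and monocyte markers tested none passed and 11 had a change below 0. The 4 above 0 were VCAN (1.62, limma adjusted p = 0.0549), MARCO (0.51), LYZ (0.49) and FCN1 (0.27). The summed signal of all 16 markers of this list with a probe set was 68630 to 132100 in brain-dead and 78130 to 140300 in control animals. The part of these cells in the F13A1 values was not tested.

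**Figure D4:**
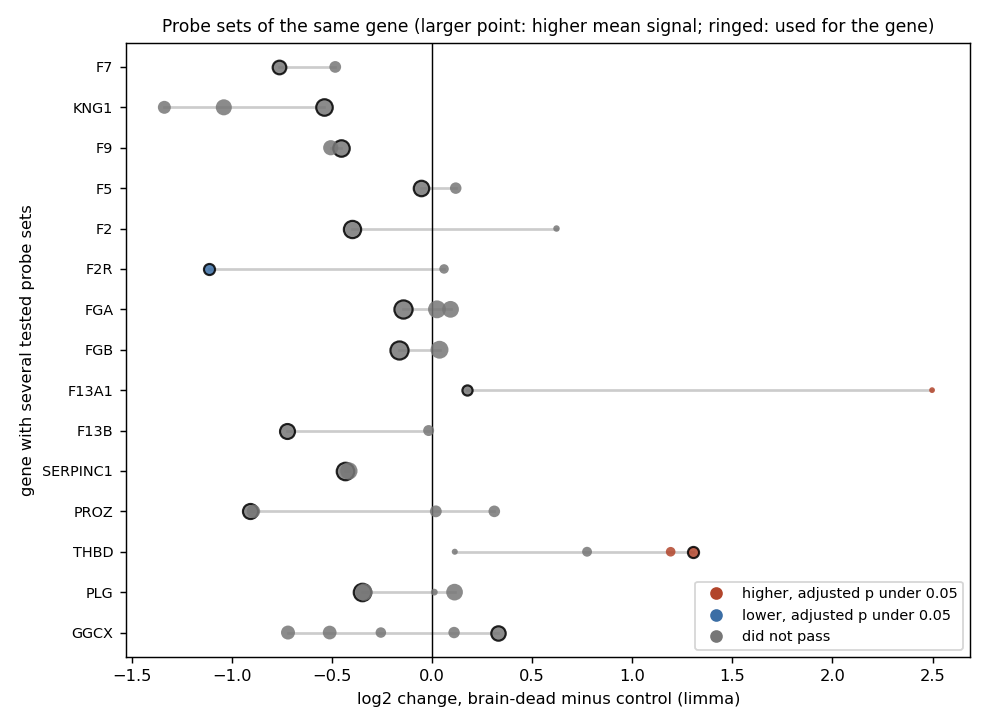
Log2 change, brain-dead minus control, of each tested probe set for the 15 genes with more than 1, with larger points for higher mean signal and a ring around the probe set used for the gene. Signs differ within 8 genes, and calls differ within THBD, F2R and F13A1.

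None of the inhibitors made by hepatocytes passed the test. Antithrombin, which blocks thrombin and factor Xa and is the target of heparin, is encoded by SERPINC1. It gave 76436, 59686, 70845, 73029 and 55002 in brain-dead animals, against 84275, 101623, 86042, 93982 and 83787 in controls. The groups did not overlap in either SERPINC1 probe set, and the changes of -0.43 and -0.42 were nearly the same. Neither passed (limma adjusted p = 0.104 and 0.106). Heparin cofactor II, a second thrombin inhibitor encoded by SERPIND1, gave 49866, 37470, 36928, 35445 and 28211 in brain-dead animals, against 71404, 61809, 50840, 46086 and 54815 in controls. Only brain-dead animal 1 overlapped the controls. The change was -0.61 ± 0.19 (limma adjusted p = 0.0734, and 0.0274 to 0.218 across its alternatives). It passed under 3 of 24, among them array weights with all animals kept (limma adjusted p = 0.0413) and the omission of brain-dead animal 1, at -0.72 (limma adjusted p = 0.0429).

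PROZ, the cofactor of a factor Xa inhibitor, had a change of -0.91 ± 0.29 that missed the threshold (limma adjusted p = 0.0813). Its signal was 15577, 8009, 18687, 13575 and 7181 in brain-dead animals, against 19477, 31902, 18842, 16755 and 26899 in controls, and brain-dead animal 3 lay within the control range. Of its 4 probe sets 2 lay near -0.9 and the others at 0.02 and 0.31. PROS1 (protein S, the cofactor of activated protein C) had a change of -0.28 (95% interval -0.75 to 0.19), or -0.13 without control animal 1. Of 6 tested genes for vitamin K-dependent proteins, all were below 0 with a median of -0.43 and none passed, counting F2, F7, F9, F10, PROS1 and PROZ. GGCX, the carboxylase that acts on all of them, had 5 probe sets that ran from -0.72 to 0.33 with none past the threshold. The one used for the gene gave 7117, 14802, 13480, 17123 and 11660 in brain-dead animals, against 5510, 10344, 11259, 13710 and 10297 in controls. The animals numbered 1 were the lowest of each group, and the change of 0.33 was 0.53 without brain-dead animal 1, 0.21 without brain-dead animal 4 and 0.12 without control animal 1.

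Fibrinolysis rests on plasmin, cut from plasminogen by urokinase (PLAU) bound to its receptor (PLAUR) or by tissue activator. PLG signal was 87610, 62251, 66100, 65690 and 59782 in brain-dead animals, against 104828, 94897, 72445, 83096 and 79365 in controls. Only brain-dead animal 1 reached into the control range, and the change of -0.35 did not pass (95% interval -0.70 to 0.00). The other PLG probe sets were at -0.34, 0.11 and 0.01, none past the threshold. This probe set is of a type that can bind related transcripts, and LPA, which arose from plasminogen in primates, had a change of -0.86, not past the threshold. PLAUR ran the other way, at 538, 465, 588, 305 and 472 in brain-dead animals, against 233, 225, 370, 237 and 277 in controls. Brain-dead animal 4 lay below control animal 3. Its change of 0.81 ± 0.25 was not called (limma adjusted p = 0.0698), though it was under 3 of 23 alternatives, among them quantile normalization and median centring (limma adjusted p = 0.0424 and 0.0441, and 0.0424 to 0.189 across its alternatives). Neutrophils and monocytes carry PLAUR. Of 6 neutrophil markers tested 4 had a change above 0 and 2 below, none past the threshold. The summed signal of all 9 neutrophil markers with a probe set was 2559 to 5370 in brain-dead and 2218 to 3673 in control animals. Among the macrophage and monocyte markers given above, 11 of 15 had a change below 0. The part of either cell type in the PLAUR values was not tested. PLAU was dim, at 193 to 492 in brain-dead and 138 to 305 in control animals (change 0.47, 95% interval -0.21 to 1.14, or 0.28 without brain-dead animal 3).

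The brakes on fibrinolysis did not pass either. CPB2, the carboxypeptidase that trims plasminogen-binding ends from fibrin, had a change of -0.25 (95% interval -0.65 to 0.16). Histidine-rich glycoprotein (HRG), which binds plasminogen and heparin, gave 126412, 91074, 105652, 97274 and 46876 in brain-dead animals, against 126532, 126889, 109634, 109812 and 101234 in controls. Brain-dead animal 5 was the lowest by a wide margin, and the change was -0.36 ± 0.23, not past the threshold. Without that animal it was -0.13.

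Groups that did not overlap were found for 5 of the 29 genes, 17.2% beside 7.8% of all genes. THBD was the 1 that lay higher in all brain-dead animals, beside 3.65% of all genes, and KLKB1, KNG1, F2 and SERPINC1 were the 4 that lay lower, beside 4.15%. At the level of probe sets 5 of 55 passed the test, beside 6.1% of all 26653. They belonged to THBD (2 probe sets), KLKB1, F2R and F13A1, of which the F13A1 probe set had entered the test through the brain-dead arrays alone. Among the animals, the median distance of the 19 hepatocyte genes from their control means was -0.18, -0.47, -0.34, -0.32 and -0.71 in brain-dead animals 1 to 5, against 0.15, 0.14, -0.17, -0.06 and -0.10 in the controls. Brain-dead animal 1 and control animal 3 were almost level, and brain-dead animal 5 was farthest down. The distance is taken from the control means themselves, which centres the controls near 0.

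**Figure D5:**
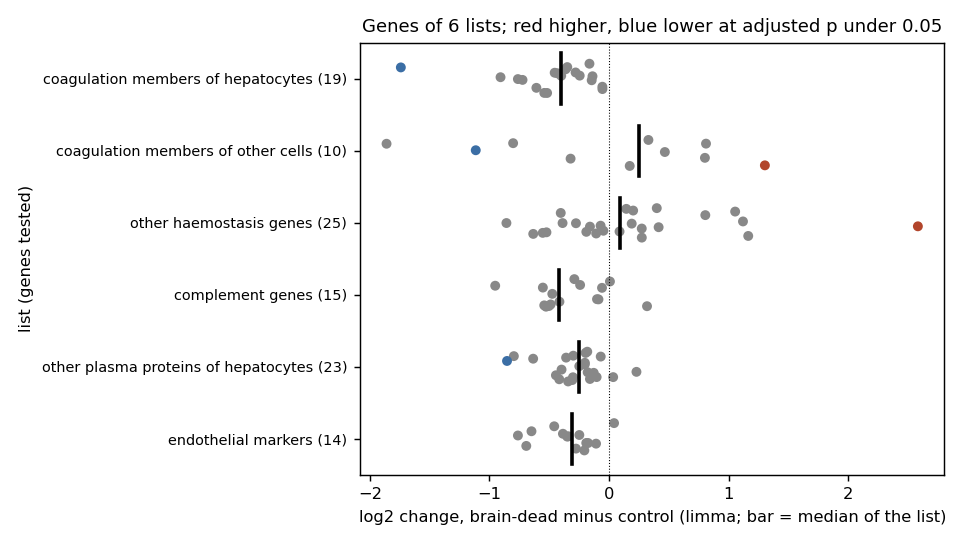
Log2 change, brain-dead minus control, of the genes on 6 lists, each with its median as a bar. Hepatocyte coagulation genes centre at -0.40, complement genes at -0.41 and other plasma proteins of hepatocytes at -0.25, while other haemostasis genes centre at 0.09.

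Other lists gave a frame for these shifts. Of 15 complement genes tested none passed and 13 were below 0, with a median of -0.41. After quantile normalization 11 of them were below 0, with a median of -0.34. Of 23 other plasma proteins of hepatocytes 1 fell, the paraoxonase PON1 (-0.85 ± 0.16), and 21 were below 0, with a median of -0.25. After quantile normalization 19 of these 23 were below 0, with a median of -0.11. All 11 hepatocyte markers stand on that list as well. No difference between these lists and the hepatocyte coagulation genes was tested.

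Of 39 further haemostasis genes 25 were tested, and 1 rose. Among the 25, 12 had a change below 0 and 13 above. TFPI2, a Kunitz-type inhibitor of plasmin and other proteases, rose by 2.58 ± 0.57 (limma adjusted p = 0.0218), to 659 ± 349 in brain-dead animals against 133 ± 93.8 in controls (SD, n = 5 each). This probe set lay above the array median on 5 brain-dead arrays and 1 control array, so the brain-dead arrays alone carried it through the filter and the size of the change is set against a dim group. Its second probe set, at 2.50, did not pass (limma adjusted p = 0.102). The transglutaminase TGM2 had a change of 1.05 that missed the threshold (limma adjusted p = 0.0508), and ANXA2, which gathers plasminogen and its activator on cell surfaces, one of 1.16 (0.0791). Among 4 platelet and megakaryocyte markers tested, SELP (P-selectin, stored in platelets and endothelium with von Willebrand factor) rose by 1.83 ± 0.43 (limma adjusted p = 0.0273). The platelet chemokine PF4 had a change of 0.10, ITGB3 one of -0.16 and CLEC1B one of -0.54, none past the threshold. The summed signal of 10 platelet markers was 2405 to 4618 in brain-dead and 1842 to 3298 in control animals.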

How the data were processed

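The intensity values that the authors deposited are linear MAS5 signals, per the submitters' processing notes. The sources used here give no MAS5 version. Trimming 2% from each end left a mean of 1000 on each array, so a shift shared by most transcripts is removed. Gene names came from a 2016 platform annotation of the probe sets, in which 24969 had 1 symbol, 361 several and 27535 none. Signals were taken to log2 without a pseudocount. After 99 control probe sets were left out, those above the array median on at least 5 of 10 arrays were kept (26653).

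Brain death and control were compared with limma 3.58.1 in R 4.3.3 (lmFit, eBayes with trend, group alone), and p-values were adjusted by Benjamini-Hochberg over the 26653 probe sets, with 0.05 as the threshold. Each gene was represented by its tested probe set with the highest mean. On data simulated for this comparison over 26653 probe sets, 34.3% of changes of 1 on the log2 scale, 80.6% of those of 2 and 95.5% of those of 3 were recovered, with 8 false calls among 148. Only 67, 67 and 66 probe sets were changed by these sizes, with independent noise. In the data 1627 probe sets were called, so these rates do not give the recovery there.

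The members, roles, marker lists and alternatives were chosen with earlier results of these data known. The members are all 30 genes with a probe set. Full values are given for those past the threshold, those with disagreeing probe sets and the brightest of each role. Other lists name up to 4 called genes per direction. Genes of those lists that did not pass, such as TGM2, ANXA2 and LPA, were named by choice and not by a rule. No sequences or promoter motifs were analysed here. Version 1.17.8 of data.table read the tables, and matplotlib 3.10.9 under Python 3.11.15 drew the figures.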

Additional observations from a re-analysis of the deposited data

Results flagged for a closer look

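Of 58 groups of 5 animals examined over the 29 genes, 2 held an animal far from the others, where chance gives about 1 in 20. That count is not above what chance would give. F12 was 16134 in control animal 4, below the other controls at 26576 to 31270, a gap that took a share of 0.754 of the group's range on the log2 scale. PLG was 87610 in brain-dead animal 1, above the other brain-dead animals at 59782 to 66100, with a gap share of 0.737. Both are past the critical share of 0.71 for 5 values. Control animal 4 was also the lowest of all 10 animals for F7.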

How the results depend on the processing

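KLKB1 and THBD kept their direction and their call at 0.05 under all 24 alternatives, and no called change reversed. At 0.01 KLKB1 was no longer called. The count of fallen members was 2. It became 1 with median centring, no filter, sex in the model, eBayes without trend and the mean of a gene's probe sets. It became 4 with array weights, 0 at a threshold of 0.01 and 6 at 0.10. With a filter at the 75th percentile it was 3 among 24 members tested, with KNG1 added. The count of risen members, 1, became 2 with quantile normalization, median centring, the mean of probe sets (which adds F13A1) and a threshold of 0.10. That F13A1 mean includes the probe set at 2.50 that entered the test through the brain-dead arrays alone, beside 0.17 in the other. Leaving out 1 replicate gave 1 to 3 fallen and 1 risen member. The 1627 changed probe sets became 1056 without a filter, 1035 with sex and age in the model (brain-dead animal 3, with no age, left out), 674 without both arrays numbered 1 and 660 to 2289 without 1 replicate. Brain-dead animals 3, 4 and 5, each left out in turn, gave 892, 849 and 680, and controls 1, 2 and 3 likewise 856, 660 and 735. With the replicate number as a block, 3013 probe sets changed, 2 members rose and 4 fell. The block added calls of KNG1, SERPIND1 and PLAUR (limma adjusted p = 0.0321, 0.0274 and 0.0498). The labels give no meaning to the shared numbers, and the deviations of same-numbered animals correlated at 0.0643 to 0.38, above 0.1 in 3 of 5 pairs. Pairing was accepted only with every pair above 0.1. For 2 of the 5 numbers the same-numbered animal was the best match. Dim genes (PROCR, PLAU, PLAUR, F3) are limited by signal near the array median, and FGG lay near the highest signal of its array.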
